A study of Mus musculus with 24 samples.

Results

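The genes that build, assemble and regulate the proteasome were followed in mouse liver RNA across 4 gavage groups. The set was a list of 43 gene symbols, each found among the 17537 genes of the tables, and it was divided by place in the complex: 7 alpha and 7 constitutive beta subunits of the 20S core, 3 immune beta subunits, 9 base and 8 lid subunits of the 19S cap, 4 assembly factors, and 5 activators or inhibitors. All 43 were above 0 in all 24 libraries and all 43 passed the filter of 1 FPKM (reads scaled to transcript length and library depth) in at least 6 libraries that left 10697 genes for testing.

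Livers came from male C57BL/6 mice, and each group has 6 libraries. The vehicle group received 0.5% CMC, a cellulose carrier, and no other agent. The ethanol group received 1 g/kg ethanol, the DEHP group 2500 mg/kg of DEHP (a phthalate plasticizer), and the combination group the same doses of both. The titles name the carrier for the vehicle group only, so whether the other animals received it is not stated, and an effect of the carrier cannot be told apart from the treatments if they did not. The labels speak of 12 mice in a group and give no age, duration or pooling, and nothing ties a library to one animal. The p-values therefore measure the spread between these libraries, which may be partly technical.

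The proteasome degrades proteins that carry ubiquitin chains. Its 20S core is a barrel of stacked alpha and beta rings, with the protease activities on the beta subunits encoded by Psmb5, Psmb6 and Psmb7. Interferon signalling induces replacement subunits, encoded by Psmb8, Psmb9 and Psmb10, that change which peptides are cut for antigen presentation. The 19S cap recognises ubiquitin in its lid and base, unfolds the substrate with the ATPases Psmc1 to Psmc6 and feeds it into the core. Other caps, encoded by Psme1 to Psme4, open the core without ubiquitin recognition. When proteasome capacity is short, the transcription factor encoded by Nfe2l1 is known to raise subunit genes together.

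The libraries held 7324793 to 8016662 expected counts, and the lowest expected count of any member was 42, for Psmd10. The summed level of 5 hepatocyte markers (Alb, Apoa1, Ttr, Cps1 and Serpina1c) was 48500 to 66550 FPKM in vehicle and 55570 to 68500 in ethanol libraries, against 35990 to 44170 in DEHP and 36810 to 43340 in combination libraries, with no overlap. Alb was the largest part of the sum, at 28990 to 39580 FPKM in vehicle and 17610 to 26870 in DEHP libraries. Between these groups Serpina1c was also apart, while Apoa1, Ttr and Cps1 overlapped. Between vehicle and combination Alb, Serpina1c and Cps1 were apart, and Apoa1 and Ttr overlapped. Vehicle replicate 1 and combination replicate 6 carried skeletal muscle transcripts, with marker sums of 4618 and 3465 FPKM where all other libraries were at 3.34 or lower. DEHP replicate 6 carried pancreatic transcripts (424 FPKM, others at most 3.19), and DEHP replicate 1 was highest in Kupffer cell markers (220.5) and neutrophil markers (54.09). Vehicle replicate 3 had the highest endothelial (74.62) and lymphoid (7.03) marker sums of all libraries.

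In vehicle livers most constitutive beta genes were among the most abundant of the set. Psmb4, a beta ring subunit without protease activity, led with 186.3 ± 18.2 FPKM (SD, n = 6), followed by Pomp, the chaperone of core assembly, with 148.9 ± 6.5. The constitutive beta genes had group means from 67.52 FPKM (Psmb2) to Psmb4, and the alpha genes from 46.77 (Psma3) to 108.3 (Psma6). Base genes lay between 35.72 (Psmd1) and 76.99 (Psmd2) and lid genes between 32.48 (Psmd14) and 71.04 (Psmd8). The 3 immune genes were lower, between 18.06 (Psmb9) and 29.53 (Psmb10), and the base chaperone Psmd10 was lowest of all at 7.675 ± 1.36. Psme2 has a near-identical retrocopy in the mouse genome, and how reads shared by similar copies were divided is not given in the sources used here, so its level is uncertain.

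Summed over the 43 genes, the level was 2750 to 2988 FPKM in the vehicle group (median 2844) and 2829 to 3223 in the ethanol group (median 2977). It was 3322 to 3886 in the DEHP group (median 3685) and 3646 to 4546 in the combination group (median 4239). Every library that received DEHP was thus above every library that did not. The same separation held for sums rescaled to TPM, a unit in which each library adds up to the same total: 4118 to 4692 without DEHP and 5235 to 6814 with it. Immune beta sums did not follow, with medians of 73.13 FPKM in vehicle, 74.78 in ethanol, 68.78 in DEHP and 74.89 in combination libraries, and all 4 ranges overlapping.

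The promoters of the genes with the largest difference between combination and vehicle in the beta ring (Psmb5), the alpha ring (Psma7) and the base (Psmd4) are shown. Whether these genes share regulation was not tested. The 250 bases before each start were taken from RefSeq annotation on build GRCm38.p6, on the strand of the gene. Positions count back from the start, so that -1 is the last base shown. Capitals mark the core of an antioxidant response element (TGACNNNGC) at -47 in Psmb5, and a CCAAT box at -196 in Psma7 and, on the opposite strand, at -95 in Psmd4.
Psmb5, chr14:54617996-54618245, minus strand: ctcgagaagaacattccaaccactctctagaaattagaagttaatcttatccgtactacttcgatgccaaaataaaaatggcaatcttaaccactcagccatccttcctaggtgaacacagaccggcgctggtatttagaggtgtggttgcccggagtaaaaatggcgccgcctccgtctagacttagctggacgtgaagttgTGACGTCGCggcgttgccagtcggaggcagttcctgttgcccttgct
Psma7, chr2:180042465-180042714, minus strand: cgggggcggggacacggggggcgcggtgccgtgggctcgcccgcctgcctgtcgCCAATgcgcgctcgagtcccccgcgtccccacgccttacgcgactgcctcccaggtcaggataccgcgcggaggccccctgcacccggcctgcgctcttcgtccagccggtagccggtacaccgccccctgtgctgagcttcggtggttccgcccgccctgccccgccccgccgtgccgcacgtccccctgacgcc
Psmd4, chr3:95042615-95042864, minus strand: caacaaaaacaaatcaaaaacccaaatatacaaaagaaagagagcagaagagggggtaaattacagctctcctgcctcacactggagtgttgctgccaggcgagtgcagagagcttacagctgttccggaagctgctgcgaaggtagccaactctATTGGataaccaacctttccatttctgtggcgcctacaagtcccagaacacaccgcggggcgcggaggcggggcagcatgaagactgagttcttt

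Of the 43 genes, 37 had a promoter entry. With both strands searched, TGACNNNGC was found in 5 of the 37 windows (Psmb5, Psmb6, Psmc6, Psmd9 and Psmd12), a share of 13.5% against 10.2% of all 32851 windows. CCAAT was found in 13 of 37 (35.1%, against 33.9% of all windows), 5 of them alpha genes (Psma1, Psma2, Psma3, Psma6 and Psma7). The core of the interferon-stimulated response element, GAAA repeated after 2 bases of any kind, was found in 3 windows (Psmb3, Psmd4 and Psmd9), a share of 8.11% against 2.98%, and in none of the 3 immune genes. In the Psmd4 window the last motif starts at -80 and the CCAAT box at -95, without overlap. The start used for a window can differ from the start of the gene span. The Psma3 window (chr12:70974373-70974622) lies inside its gene span, which begins at 70969283. The Psmb6 window ends at 70525356, past its span start at 70525324, and its match at -9 lies inside the span. These matches are letters in a window and not measured sites.

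**Figure D1:**
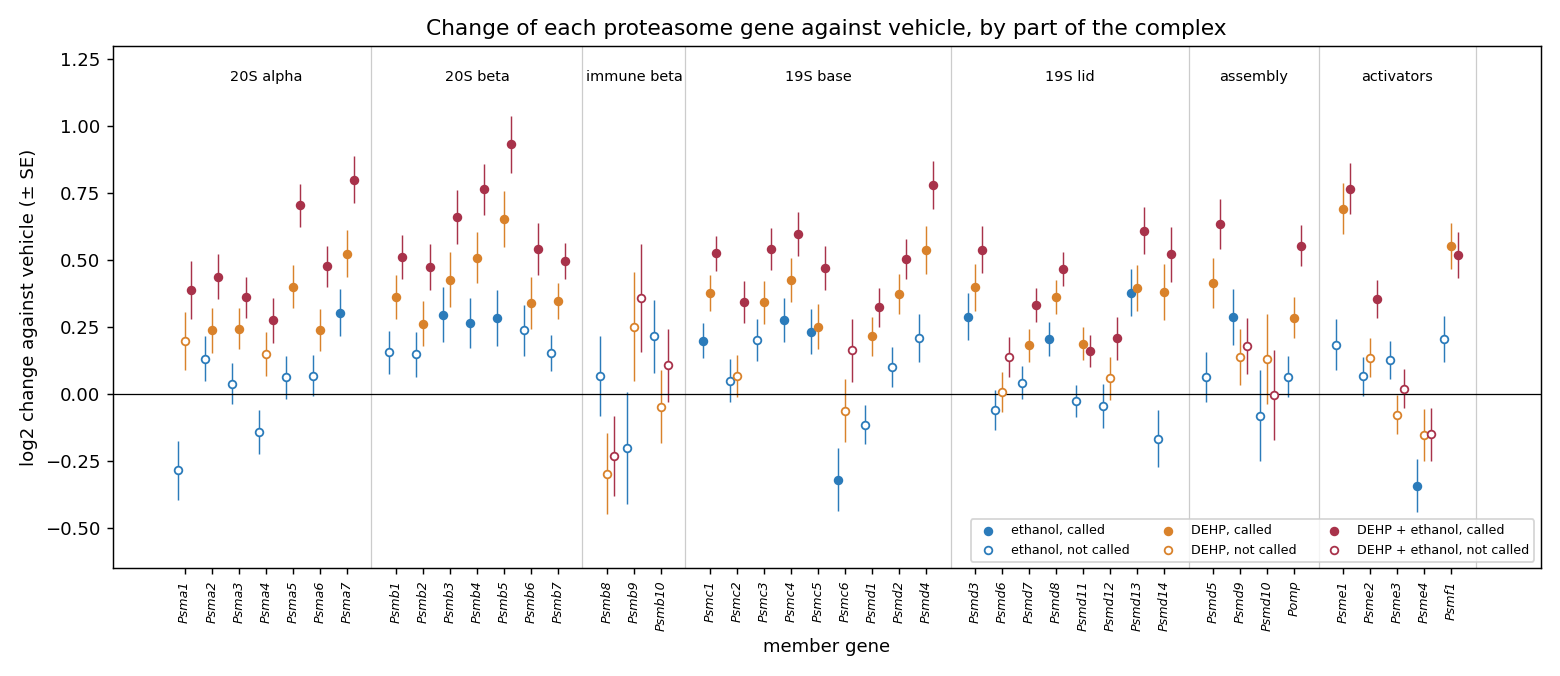
Change of each of the 43 proteasome genes against vehicle, as log2 change with its standard error, for ethanol, DEHP and the combination; filled points passed an adjusted p of 0.05 and open points did not. With DEHP, 29 genes rose and none fell, where 14.4% of all tested genes rose and 11.6% fell. With the combination 34 rose and none fell, where 19.3% of all tested genes rose and 17.4% fell. The 3 immune beta genes passed in none of the 3 comparisons.

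DEHP alone was compared with vehicle to see what the phthalate changed. Proteasome genes rose broadly: 29 of 43 passed the test upward and none downward, where 14.4% of all tested genes rose and 11.6% fell. The median log2 change of the 43 was 0.26, against -0.02 for all tested genes. In 20 of 43 genes all 6 DEHP libraries were above all 6 vehicle libraries, against 7.24% of all genes. The hepatocyte marker sums given above differed between the same groups without overlap, and their part in these changes was not tested. Leaving out vehicle replicate 1 alone left 23 genes higher, leaving out vehicle replicate 3 alone left 25, leaving out DEHP replicate 1 left 27 and DEHP replicate 6 left 25. Of all tested genes 1359, 1341, 1306 and 1239 were then higher, in place of 1537.

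The beta ring moved as a whole. All 7 constitutive beta genes rose with DEHP, with a median log2 change of 0.36. Psmb5, which encodes the chymotrypsin-like protease (RefSeq span chr14:54614120-54617995), was at 104.5, 120.3 and 122.9 FPKM (lowest, median and highest library) in vehicle and at 161.4, 185.7 and 232.9 in DEHP livers. The ranges did not overlap, and the log2 change was 0.65 ± 0.11 (SE; adjusted p = 5.46e-05, edgeR's quasi-likelihood test with Benjamini-Hochberg adjustment). Psmb6, the caspase-like subunit, was at 109.9, 122.2 and 136.4 FPKM against 140.2, 161.2 and 169.4 (log2 change 0.34 ± 0.10, adjusted p = 0.0104). Psmb7, the trypsin-like subunit, was at 122.4, 135.9 and 138.9 against 155.8, 171.1 and 188.2 (0.35 ± 0.07, adjusted p = 0.000374). For both genes every DEHP library lay above every vehicle library. Of the other beta genes, Psmb1, Psmb3 and Psmb4 were also without overlap, and Psmb2 overlapped.

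In the alpha ring, which gates the core, 5 of 7 genes rose with DEHP. Psma7 was at 89.06, 105.3 and 118.8 FPKM in vehicle and 139.7, 154.3 and 163.3 in DEHP libraries, with no overlap and a log2 change of 0.52 ± 0.09 (adjusted p = 8.12e-05). Psma5 followed with 0.40 ± 0.08, also without overlap. Psma1 (0.20 ± 0.11) and Psma4 (0.15 ± 0.08) did not pass.

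Of the 9 base genes, 7 rose with DEHP. Psmd4, the ubiquitin receptor of the base, was at 60.3, 65.97 and 69.44 FPKM in vehicle and 84.11, 98.47 and 108.4 in DEHP livers, without overlap (log2 change 0.54 ± 0.09, adjusted p = 8.25e-05). The ATPase genes Psmc4 (0.42 ± 0.08) and Psmc1 (0.38 ± 0.07) and the scaffold gene Psmd2 (0.37 ± 0.07) rose without overlap. Psmc2 (0.07 ± 0.08) and Psmc6 (-0.06 ± 0.12) did not pass. Of the 8 lid genes, 6 rose, led by Psmd3 and Psmd13 at 0.40 ± 0.09 each. Psmd14, which encodes the deubiquitinase of the lid, rose by 0.38 ± 0.10 on the log2 scale, while Psmd6 (0.01 ± 0.07) and Psmd12 (0.06 ± 0.08) did not pass.

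Assembly factors were split. Psmd5, a chaperone of the base, was at 12.95, 14.63 and 17.57 FPKM in vehicle and 17.7, 20.5 and 23.98 in DEHP livers (log2 change 0.41 ± 0.09, adjusted p = 0.00195), with the groups just apart. Pomp was at 142.0, 147.8 and 156.5 against 141.4, 189.3 and 211.6, so one DEHP library lay below the vehicle range, and the change was 0.28 ± 0.08 (adjusted p = 0.00756), a call lost with the length trend removed. The base chaperones Psmd9 (0.14 ± 0.10) and Psmd10 (0.13 ± 0.17) did not pass.

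The activators and the inhibitor differed among themselves, with 2 of 5 rising. Psme1, one of the 2 subunits of the interferon-inducible PA28 cap (chr14:55578494-55581527), had the largest change of the 43 genes: 85.45, 97.3 and 111.3 FPKM in vehicle against 142.1, 161.7 and 178.6 in DEHP livers, a log2 change of 0.69 ± 0.10 (adjusted p = 6.91e-06). Its partner Psme2 was at 78.29, 90.34 and 97.79 against 90.77, 99.54 and 102.3, which overlap (0.14 ± 0.07, adjusted p = 0.171). Psmf1, which encodes the inhibitor PI31, was at 8.26, 8.88 and 9.89 against 11.99, 12.99 and 15.57 and rose by 0.55 ± 0.08 (adjusted p = 2.74e-05). For Psme1 and Psmf1 the DEHP libraries were all above the vehicle libraries. The nuclear activator gene Psme3 (19.15, 22.8 and 25.66 against 19.89, 21.35 and 24.33) and Psme4, which encodes PA200 (14.83, 17.73 and 19.81 against 12.44, 16.07 and 20.32), overlapped and did not pass, with log2 changes of -0.08 ± 0.07 and -0.15 ± 0.10.

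Since Psme1 and Psme2 encode partners in one ring, their ratio within a library was set beside their levels, as a description. Psme1 was 95.58 to 121.7% of Psme2 in vehicle libraries (median 115.5%) and 112.5 to 135.7% in ethanol libraries (median 120.3%). It was 145.1 to 182.1% in DEHP libraries (median 166.3%) and 126.4 to 161.6% in combination libraries (median 156.0%). The DEHP libraries were above all libraries without DEHP. The combination libraries were above all vehicle libraries and overlapped with the ethanol and DEHP libraries. The Psme1 and Psme2 genes lie 5912 bases apart on chromosome 14.

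None of the 3 immune subunit genes passed with DEHP, in either direction. Psmb8 (chr17:34198195-34201454) was at 22.0, 26.43 and 40.81 FPKM in vehicle and 19.64, 21.75 and 31.17 in DEHP livers (log2 change -0.30 ± 0.15, adjusted p = 0.149). Psmb9 was at 12.03, 16.26 and 32.15 against 17.4, 21.48 and 28.16 (0.25 ± 0.20, adjusted p = 0.383), and Psmb10 at 21.47, 30.16 and 37.96 against 25.44, 27.55 and 35.51 (-0.05 ± 0.14, adjusted p = 0.826). All 3 pairs of ranges overlap. The highest vehicle value of each of the 3 genes came from replicate 3, the library with the highest endothelial and lymphoid marker sums. Its Kupffer cell sum was 173.9 FPKM, against 56.55 to 102.8 in the other vehicle libraries. DEHP replicate 1 had the highest Kupffer cell, endothelial and lymphoid sums of the DEHP group (220.5, 69.32 and 6.41 FPKM). Its Psmb9, at 17.4 FPKM, was the lowest of that group, and its Psmb8 was at 22.49. The highest Psmb8 of that group, 31.17 in replicate 2, came with an endothelial sum of 43.28. Ethanol replicate 2 had the highest Kupffer cell, endothelial and lymphoid sums of its group (111.79, 42.54 and 6.06 FPKM). Its Psmb8 and Psmb9, 35.92 and 23.54 FPKM, were also the highest there, and its Psmb10 was not. Combination replicate 2 had the highest Psmb8, Psmb9 and Psmb10 of its group (33.02, 32.25 and 42.89 FPKM). Its endothelial and lymphoid sums (66.67 and 4.23) were the highest there, and its Kupffer cell sum was not. The part of these cells was not tested. In pieces of whole liver, fewer cells of a type and less RNA per cell cannot be told apart.

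The balance of immune and constitutive catalytic genes within each library is given as a description, with no test. Psmb8 amounted to 18.17 to 39.03% of Psmb5 in vehicle libraries (median 22.31%, highest 25.4% without replicate 3), 16.44 to 26.23% in ethanol, 9.654 to 19.32% in DEHP and 7.475 to 13.68% in combination libraries. For this pair the combination libraries were all below the vehicle and ethanol libraries, and the DEHP libraries overlapped with both. The other pairs overlapped between vehicle and each other group. The median of Psmb9 as a share of Psmb6 was 12.74% in vehicle, 9.912% in ethanol, 13.24% in DEHP and 13.19% in combination libraries. Psmb10 was 15.48 to 28.35% of Psmb7 in vehicle, 19.69 to 25.81% in ethanol, 13.52 to 20.57% in DEHP and 13.55 to 22.7% in combination libraries. The immune genes made up 12.65 to 24.03% of the summed level of the 6 catalytic genes in vehicle libraries (highest 18.3% without replicate 3), 13.95 to 18.99% in ethanol, 10.47 to 15.89% in DEHP and 9.874 to 14.66% in combination libraries. These shares overlap between vehicle and each other group.

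**Figure D2:**
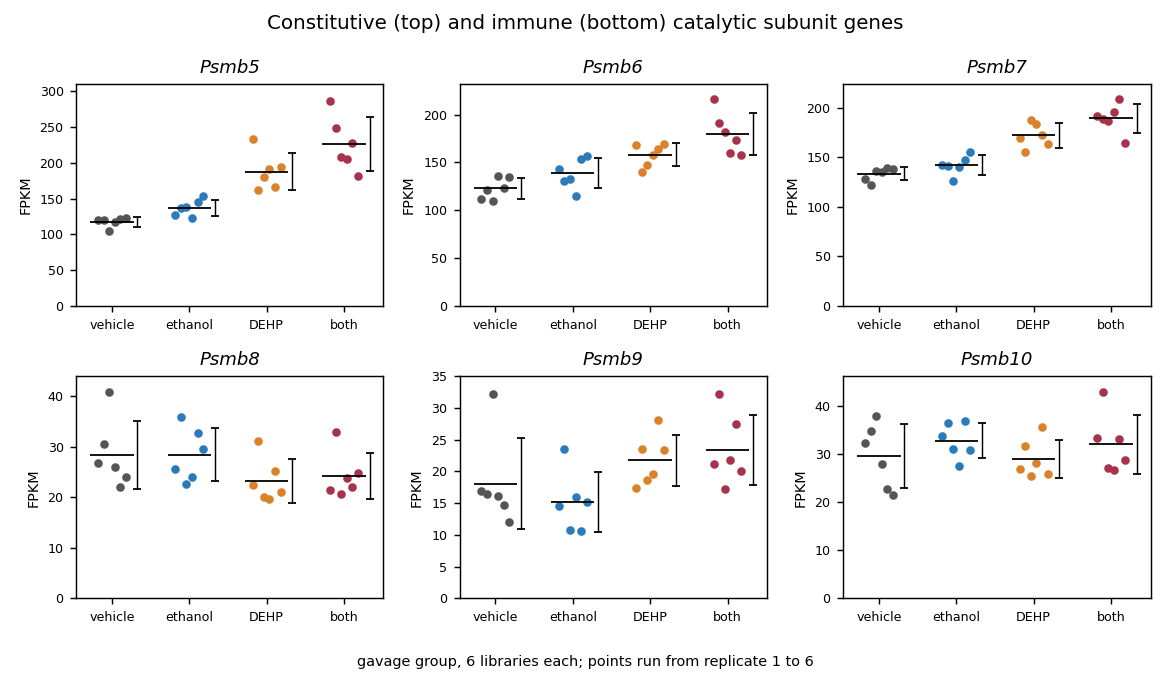
Level in FPKM of the 3 constitutive catalytic genes (top) and the 3 immune catalytic genes (bottom) in each library, with the group mean (line) and SD (bar), n = 6 in a group. Psmb5 lies between 104.5 and 122.9 in vehicle and between 181.3 and 286.7 in combination libraries, while the ranges of Psmb8 overlap in all 4 groups.

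The combination was compared with vehicle, a comparison that shares its vehicle libraries with the DEHP one. Here 34 of 43 genes rose and none fell, where 19.3% of all tested genes rose and 17.4% fell, and the median log2 change was 0.47 against -0.01 for all genes. In 32 genes all combination libraries were above all vehicle libraries (10.7% of all genes). All 7 alpha and all 7 constitutive beta genes rose, as did 8 of 9 base genes, 7 of 8 lid genes, 2 of 4 assembly factors and 3 of 5 activators. Hepatocyte marker sums differed here too, 36810 to 43340 FPKM against 48500 to 66550, and their part was not tested. Without vehicle replicate 1 and combination replicate 6, the libraries with muscle transcripts, 32 genes rose with a median of 0.47. Of all tested genes 1807 then rose, in place of 2067.

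Psmb5 had the largest change, with 181.3, 217.5 and 286.7 FPKM in combination livers (log2 change 0.93 ± 0.11, adjusted p = 2.64e-07), a level 1.91 times that of vehicle. Psma7 was at 155.1, 183.7 and 220.6 (0.80 ± 0.09, adjusted p = 1.47e-07), and Psmd4 at 96.77, 116.3 and 129.5 (0.78 ± 0.09, adjusted p = 3.29e-07). All 3 were without overlap with vehicle. Psmb6 (157.8, 177.7 and 216.1; 0.54 ± 0.10) and Psmb7 (164.5, 190.2 and 209.5; 0.50 ± 0.07) were also apart from vehicle. Pomp was at 197.7, 222.4 and 253.6, now wholly above the vehicle range (0.55 ± 0.08, adjusted p = 4.12e-06), and Psmd5 was at 21.05, 23.35 and 25.67 (0.64 ± 0.09). In the lid, Psmd13 led with 0.61 ± 0.09 and was apart from vehicle. Psmd11 and Psmd12 passed at adjusted p = 0.0413 and 0.0444, and each lost its call when any one of 14 libraries was left out.

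Among the activators Psme1 was at 140.8, 162.0 and 208.0 FPKM in combination livers (0.77 ± 0.10, adjusted p = 9.79e-07), and Psmf1 at 11.25, 12.86 and 14.88 (0.52 ± 0.08, adjusted p = 3.79e-05). Psme2 was at 100.6, 113.2 and 132.1 and rose by 0.35 ± 0.07 (adjusted p = 0.000431), a call lost with the length trend removed. All 3 were apart from vehicle. Psme3 (22.17, 22.99 and 23.8) and Psme4 (14.13, 15.96 and 17.84) did not pass, at 0.02 ± 0.07 and -0.15 ± 0.10. Among the 9 genes that did not pass were also the immune genes Psmb8 (20.6, 22.95 and 33.02; -0.23 ± 0.15), Psmb9 (17.19, 21.53 and 32.25; 0.36 ± 0.20) and Psmb10 (26.62, 30.95 and 42.89; 0.11 ± 0.14). The last 4 were Psmc6 (0.16 ± 0.12), Psmd6 (0.14 ± 0.07), Psmd9 (0.18 ± 0.10) and Psmd10 (-0.01 ± 0.17). Psmb9 passed without vehicle replicate 3, at 0.59 with an adjusted p of 0.0144.

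**Figure D3:**
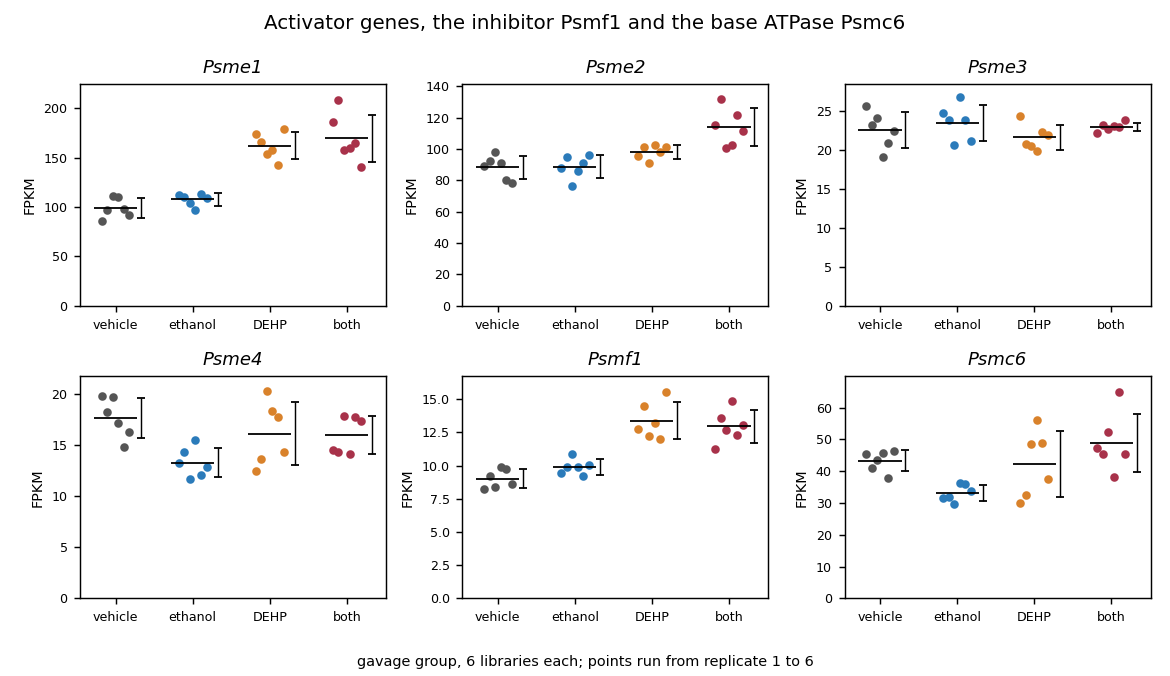
Level in FPKM of the activator genes Psme1 to Psme4, the inhibitor gene Psmf1 and the base ATPase gene Psmc6 in each library, with the group mean (line) and SD (bar), n = 6 in a group. Psme1 is at 85.45 to 113.5 without DEHP and at 140.8 to 208.0 with it, whereas Psme3 stays between 19.15 and 26.79 in all groups and Psmc6 is lowest with ethanol.

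Against ethanol alone, the combination shows what DEHP changed where both groups received ethanol. Of 43 genes, 37 rose and none fell (15.1% and 12.7% of all genes), with a median log2 change of 0.33 against 0.02, and in 31 genes the groups did not overlap (11.3% of all genes). All 7 alpha, 7 constitutive beta, 9 base and 8 lid genes rose. The largest changes were those of Psmd14 (0.69 ± 0.10, adjusted p = 1.68e-05), Psma1 (0.67 ± 0.11, adjusted p = 3.79e-05) and Psmb5 (0.65 ± 0.11, adjusted p = 3.99e-05). Psmd14 was at 23.29, 28.91 and 30.5 FPKM with ethanol and 37.97, 46.55 and 58.46 with the combination, and Psma1 at 50.44, 59.55 and 68.94 against 85.34, 94.24 and 132.5. Both pairs of ranges were apart. On the TPM scale, where the median of all genes moves to 0.12, 2563 of all genes were higher and 695 lower in place of 1620 and 1356, and without TMM factors 2198 and 915. The hepatocyte marker sums, 55570 to 68500 FPKM with ethanol, were again without overlap between these groups.

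Psme1 (0.58 ± 0.09), Psme2 (0.29 ± 0.07) and Psmf1 (0.31 ± 0.08) rose in this comparison and did not overlap, as did Psmd5 (0.57 ± 0.09) and Pomp (0.49 ± 0.08). Psmb9 was the one immune gene to pass, with 10.68, 14.86 and 23.54 FPKM against 17.19, 21.53 and 32.25 (0.56 ± 0.21, adjusted p = 0.0425). Its ranges overlapped, and leaving out any one of 9 ethanol or combination libraries ended the call. Psmd6 and Psmd13 passed at adjusted p = 0.0467 and 0.047 and lost their calls without any one of 18 and 17 libraries. Psmb8 (-0.30 ± 0.15), Psmb10 (-0.11 ± 0.14), Psmd9 (-0.11 ± 0.10), Psmd10 (0.08 ± 0.17), Psme3 (-0.11 ± 0.07) and Psme4 (0.19 ± 0.10) did not pass.

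Ethanol alone against vehicle gave calls in both directions that depended on the setting. With TMM scaling 11 of 43 genes rose and 2 fell, where 14.2% of all tested genes rose and 14.5% fell. The median log2 change was 0.13 against -0.01. In 3 genes (Psmb5, Psmc1 and Psmd13) all ethanol libraries were above all vehicle libraries (3.9% of all genes), and in 2 genes (Psma4 and Psmc6) they were all below (6.76%). On the TPM scale, where the median of all genes moves to -0.15, 1 member was higher and 8 were lower, and of all genes 481 were higher and 2764 lower, in place of 1524 and 1555. Without TMM factors the latter were 930 and 2061. Leaving out 1 library gave 5 to 14 genes higher and 1 to 3 lower, and 1188 to 1644 and 1210 to 1671 of all genes. The count of rises fell to 7 or fewer without vehicle replicate 1 (6), 2 (6) or 3 (5) or without ethanol replicate 1 (7), 3 (5), 5 (6) or 6 (6). In those fits 1188 to 1364 of all genes rose.

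The lid gene Psmd13 had the largest rise with ethanol, from 42.33, 45.05 and 51.75 FPKM to 52.7, 56.27 and 62.17, without overlap (log2 change 0.38 ± 0.09, adjusted p = 0.00275). It kept its call on leaving out any single library. Psma7 rose by 0.30 ± 0.09 (adjusted p = 0.0119) and Psmb3 by 0.30 ± 0.10 (adjusted p = 0.0302), both with overlap. Psmb5 reached 123.3, 137.2 and 153.7 FPKM with ethanol, above the vehicle range, but its call (0.28 ± 0.11, adjusted p = 0.0463) was lost without any one of 17 libraries. The other 7 rises were those of Psmb4, Psmc1, Psmc4, Psmc5, Psmd3, Psmd8 and Psmd9, between 0.20 and 0.29.

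Psmc6, a base ATPase (chr14:45329823-45349074), and Psme4 fell with ethanol. Psmc6 was at 37.82, 44.45 and 46.35 FPKM in vehicle and 29.59, 32.79 and 36.13 in ethanol livers (-0.32 ± 0.12, adjusted p = 0.043), without overlap. Its call was lost on leaving out any one of 9 libraries (adjusted p from 0.0515 to 0.0877), without a filter, with upper quartile factors and with filterByExpr. Psme4 was at 14.83, 17.73 and 19.81 against 11.71, 13.05 and 15.5, with overlap (-0.34 ± 0.10, adjusted p = 0.0114). Psma1 was at 66.32, 77.0 and 78.9 against 50.44, 59.55 and 68.94 (-0.29 ± 0.11) and just missed the threshold with an adjusted p of 0.0503. No immune gene passed: Psmb8 was at 22.61, 27.67 and 35.92 FPKM with ethanol (0.07 ± 0.15), Psmb9 at 10.68, 14.86 and 23.54 (-0.20 ± 0.21) and Psmb10 at 27.54, 32.41 and 36.82 (0.21 ± 0.14). Psmb6, Psmb7, Pomp, Psme1, Psme2, Psme3 and Psmf1 did not pass either, with log2 changes between 0.06 and 0.24. Their ethanol medians were 138.0, 141.9, 149.8, 109.6, 89.37, 23.88 and 9.89 FPKM in that order.

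Whether adding ethanol to DEHP changed anything further was asked by setting the combination against DEHP alone. No member passed in either direction, where 0.0467% of all genes rose and 0.0748% fell, and in no gene were the groups apart (0.299% of all genes had all combination libraries above). The estimates leaned one way: 40 of 43 were above 0, with a median of 0.15. For all tested genes the median was 0.00, so about as many lay above 0 as below. At an unadjusted p below 0.05 there were 21 members, all higher, where 5.75% of all genes were higher at that level. With the length trend described below removed, the median was 0.12 (all genes 0.01). No member passed there, where 1 of all genes rose and 1 fell. DESeq2 called 1 member, Psma5 (19 of all genes rose), and limma none (2 of all genes rose). Psma5 was at 57.48, 71.88 and 80.04 FPKM with DEHP and 73.31, 84.41 and 101.3 with the combination, which overlap (0.30 ± 0.08, adjusted p = 0.165). The next largest were Psmb5 (0.28 ± 0.10, adjusted p = 0.345) and Psmc2 (0.28 ± 0.08, adjusted p = 0.197). The 3 estimates below 0 were those of Psmd10 (-0.14 ± 0.17), Psmd11 (-0.03 ± 0.06) and Psmf1 (-0.03 ± 0.08).

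The interaction asks whether ethanol had a different effect with DEHP than without it. One member passed, Psmc6, at 0.55 ± 0.17 (adjusted p = 0.0484), where 3.32% of all genes passed upward and 3.09% downward, and 7 members were at an unadjusted p below 0.05 (23.4% of all genes). Psmc6 was at 30.01, 42.97 and 56.02 FPKM with DEHP and 38.19, 46.38 and 64.8 with the combination, so the 6 DEHP libraries spread more widely than the 6 ethanol ones. The call was lost on leaving out any one of 16 libraries, among them vehicle replicates 1, 2, 3, 4 and 6 and ethanol replicates 1, 2, 3, 5 and 6, with adjusted p from 0.055 to 0.103. Psma1 was next at 0.48 ± 0.15 (adjusted p = 0.0591), and the smallest were Psmd9 (-0.25 ± 0.15), Psmf1 (-0.24 ± 0.12) and Psmd13 (-0.16 ± 0.12). The median over the 43 was 0.00. On TPM 439 of all genes passed upward and 120 downward, in place of 355 and 331, with a median of 0.11, and without TMM factors 447 and 203.

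Libraries differed in how level depended on transcript length, and the proteasome genes are short. Their median transcript length was 1339 bases, against 2702 for all tested genes, and 39 of 43 were below the latter; Psme4, at 6454 bases, was the longest. In each library the deviation of all tested genes from their mean was fitted against log2 length. The slope per doubling of length was 0.058 to 0.124 in vehicle, -0.057 to 0.090 in ethanol, -0.053 to 0.030 in DEHP and -0.104 to 0.005 in combination libraries. Vehicle libraries thus held relatively more of long transcripts than all DEHP and combination libraries, and than all ethanol libraries except replicate 4, which alone reached 0.090. Vehicle replicate 3 had the steepest slope.

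With this trend removed from every library, fewer members rose in each comparison with vehicle or ethanol, and 1 more fell in each comparison with vehicle. With DEHP 22 genes rose and 1 fell (14.1% and 9.28% of all genes), with a median of 0.22. With the combination 29 rose and 1 fell (17.4% and 12.1%), with a median of 0.32, and against ethanol 34 rose and none fell (15.5% and 12.6%), with a median of 0.29. With ethanol alone 4 rose and 3 fell (12.9% and 11.2%), with a median of 0.02. Psmb5 remained at 0.54 with DEHP (adjusted p = 6.87e-05) and 0.74 with the combination (adjusted p = 6.48e-07), Psme1 at 0.58 and 0.58, and Psmf1, whose transcript is long, at 0.60 in both.

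Other rises were lost with the trend removed. With DEHP 7 genes no longer passed: Psma2, Psma6, Psmb2, Psmc5, Psmd7, Psmd11 and Pomp, the last at 0.17 (adjusted p = 0.135). Of the rings, 3 of 7 alpha and 6 of 7 constitutive beta genes then still rose. With the combination 5 genes no longer passed: Psma1, Psma4, Psmd11, Psmd12 and Psme2, the last at 0.17 (adjusted p = 0.0575). There 5 of 7 alpha and all 7 constitutive beta genes still rose. Against ethanol Psmb9, Psmc5, Psmd6 and Psmd13 no longer passed, and Psme4 did (0.25, adjusted p = 0.0232).

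The single gene that fell under this correction was Psmb8, with DEHP (-0.40, adjusted p = 0.0494) and with the combination (-0.40, adjusted p = 0.0425). With ethanol, the falls of Psmc6 (-0.41, adjusted p = 0.0145), Psma1 (-0.40, adjusted p = 0.0102) and Psma4 (-0.26, adjusted p = 0.0216) passed and that of Psme4 (-0.17, adjusted p = 0.134) no longer did. The rises of Psmd13 (0.29), Psmd3 and Psmd9 remained, and Psmf1 joined them at 0.26. The interaction of Psma1 passed at 0.53 (adjusted p = 0.0355), beside that of Psmc6 at 0.59 (adjusted p = 0.0335), where 3.4% of all genes passed upward and 3.67% downward. What made the slopes differ between libraries was not tested.

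**Figure D4:**
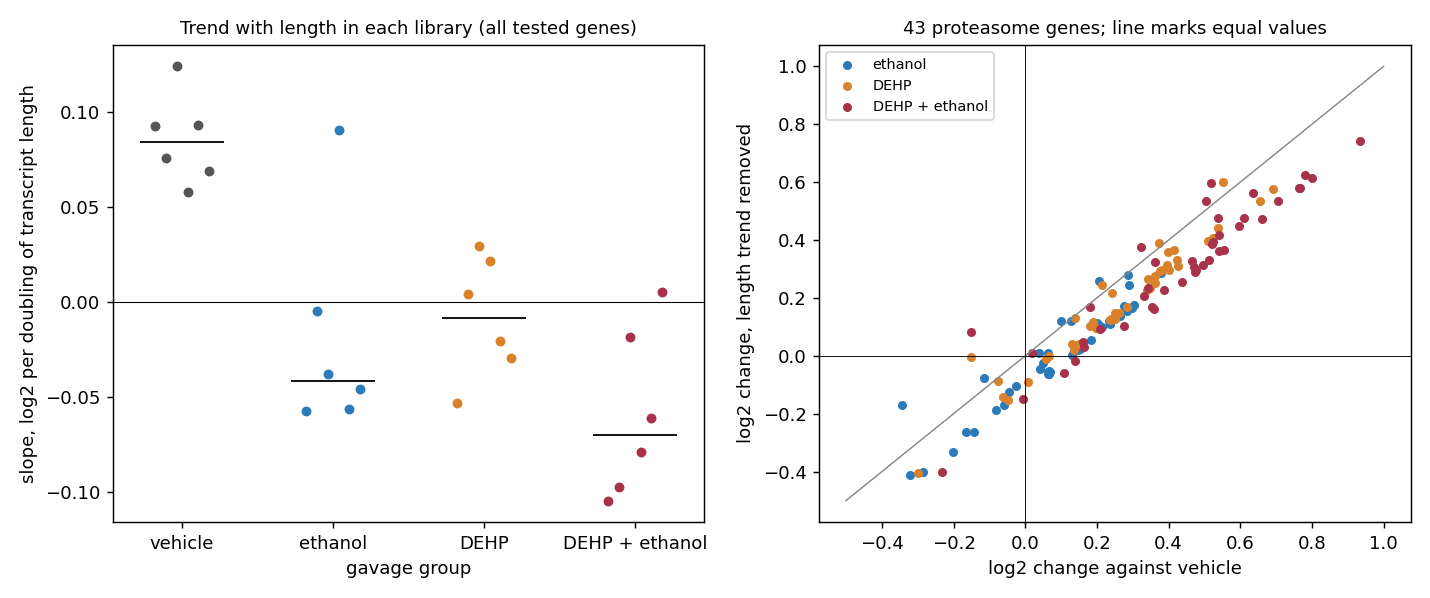
Left, slope of log2 level on log2 transcript length over all tested genes in each library, with the group median (line); right, log2 change of each of the 43 genes against vehicle before (x) and after (y) removal of the trend, with a line of equal values. Vehicle slopes are 0.058 to 0.124 and combination slopes -0.104 to 0.005, and most points lie below the line.

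Other genes of the ubiquitin and proteasome system were taken from a list of 38, of which 37 were tested. With DEHP 7 of the 37 rose and none fell, where 14.4% of all genes rose and 11.6% fell, and with the combination 13 rose and 2 fell (19.3% and 17.4% of all genes). Against ethanol the combination gave 9 rises and no fall (15.1% and 12.7%), and ethanol alone 6 rises and 2 falls (14.2% and 14.5%). With the length trend removed, 6 rose and 1 fell with DEHP (14.1% and 9.28% of all genes), and 15 and 1 with the combination (17.4% and 12.1%). Against ethanol 10 rose and 0 fell (15.5% and 12.6%), and with ethanol alone 3 and 3 (12.9% and 11.2%). With DEHP the rises thus lay near the share of all genes, before and after removal. None passed between the combination and DEHP, and the interaction passed for 1 upward and 1 downward (3.32% and 3.09%).

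Vcp, the ATPase that extracts ubiquitinated proteins for the proteasome, was at 134.4, 143.7 and 152.8 FPKM in vehicle, 142.0, 143.9 and 155.6 in ethanol, 173.2, 185.7 and 196.8 in DEHP and 183.7, 196.6 and 210.8 in combination livers. Libraries with and without DEHP did not overlap, and the log2 changes against vehicle were 0.36 ± 0.06 with DEHP (adjusted p = 4.13e-05) and 0.45 ± 0.06 with the combination (adjusted p = 1.05e-06). The shuttle gene Ubqln2 rose by 0.45 ± 0.11 and 0.50 ± 0.11 in the same comparisons. The core chaperone gene Psmg3 rose by 0.32 ± 0.12 and 0.64 ± 0.12, the former at an adjusted p of 0.0466 that became 0.176 with the length trend removed (log2 change 0.20). Txnl1, which encodes a thioredoxin-like protein bound to the cap, rose with the combination against vehicle (0.44 ± 0.08) and against ethanol (0.47 ± 0.08), and the core chaperone gene Psmg1 rose against ethanol (0.45 ± 0.11). With ethanol alone Uba6, which encodes a ubiquitin-activating enzyme, was at 0.89 to 1.15 FPKM in vehicle and 0.41 to 0.68 in ethanol libraries and fell (-0.83 ± 0.20). These levels lie near or below the filter of 1 FPKM, which no ethanol library reached. Ubqln1, another shuttle gene, fell with ethanol (-0.29 ± 0.06, adjusted p = 0.000611) and its interaction passed at 0.31 ± 0.08 (adjusted p = 0.0183).

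The transcript of Nfe2l1 itself was at 29.17, 30.98 and 45.32 FPKM in vehicle, 22.27, 27.8 and 31.65 in ethanol, 30.46, 37.88 and 42.43 in DEHP and 34.16, 36.26 and 45.26 in combination livers. It did not pass against vehicle with DEHP (0.13 ± 0.11) or with the combination (0.16 ± 0.11), though the latter passed with the length trend removed (0.30, adjusted p = 0.0352). It rose in the combination against ethanol (0.37 ± 0.11, adjusted p = 0.0127). Its product is known to be controlled mainly as a protein, which RNA does not show. Nfe2l2, which encodes the factor that acts on antioxidant response elements, did not pass in any comparison, with log2 changes against vehicle of -0.05 ± 0.11, 0.14 ± 0.11 and -0.11 ± 0.11 for ethanol, DEHP and the combination.

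Among interferon and peptide loading genes, Irf1, a transcription factor of the interferon response, rose in all 3 treated groups against vehicle, where no immune subunit gene passed. It was at 9.64, 11.94 and 15.92 FPKM in vehicle, 16.39, 17.81 and 22.38 in ethanol, 16.21, 18.15 and 19.52 in DEHP and 16.12, 18.63 and 25.93 in combination livers, each treated group being wholly above vehicle. The log2 changes were 0.69 ± 0.11, 0.58 ± 0.11 and 0.72 ± 0.11, with adjusted p of 0.000106, 0.000457 and 2.30e-05, and the interaction was -0.56 ± 0.16 (adjusted p = 0.0337). Tap1, which encodes a peptide transporter, was singled out after its values were seen, for its place beside Psmb9. It lies 225 bases from Psmb9 on chromosome 17 and did not pass in any comparison. Whether reads were counted by strand is not given in the sources used here. Tapbp, which encodes a loading chaperone, rose with DEHP (0.41 ± 0.10, adjusted p = 0.00432) and with the combination (0.38 ± 0.10). Nlrc5, which encodes an activator of class I antigen presentation genes, was at 2.36, 3.1 and 4.69 FPKM in vehicle and 1.78, 2.08 and 3.1 in combination livers and fell (-0.62 ± 0.16, adjusted p = 0.00481). The groups overlapped, and the call was lost with the length trend removed (-0.41, adjusted p = 0.0539). B2m, the light chain of class I molecules, did not pass against vehicle with DEHP (-0.24 ± 0.10) or the combination (-0.23 ± 0.10), and was lower in both with the trend removed (-0.35, adjusted p = 0.0157, and -0.42, adjusted p = 0.00322). Nlrc5 and B2m were named after their values were seen.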

How the data were processed

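RNA of mouse liver was measured in 24 libraries, with group and replicate taken from each title. Each table gives, per the file headers, the authors' expected count of every gene, an estimated number of reads, and its deposited FPKM, which scales that count to transcript length and library depth. Of expected counts above 0, 94.9% were whole numbers. Per the submitters' processing notes, Cuffdiff, mm10 and GRCm38 were used. Neither the aligner nor the handling of strand and shared reads is stated in the sources. A gene absent from a table was set to 0.

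Counts were rounded and tested with edgeR 4.0.16 in R 4.3.3 (TMM, quasi-likelihood F test, 4 groups, 20 residual degrees of freedom), for genes at 1 FPKM or more in at least 6 libraries. P-values were adjusted by Benjamini-Hochberg over 10697 genes, with calls at 0.05. A standard error is the unshrunken log2 change over the square root of F. For the interaction, the ethanol effect without DEHP was subtracted from that with DEHP. The length trend was a spline with 4 degrees of freedom, used as an offset. DESeq2 1.42.0 and limma 3.58.1 (on log2 values with pseudocounts of 1 and 0.1) were alternatives, and TPM was FPKM rescaled to equal totals. The scripts were tested on simulated data. The highest correlation between libraries, over genes, was 0.981.

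The members and lists were chosen with earlier results of these data known. Values are given in full for the catalytic, immune and activator genes, Pomp and Psmf1, and per comparison for the 3 largest and 3 smallest changes, the smallest adjusted p of each class and interactions that passed. Of the other pathway genes, up to 4 per comparison by smallest adjusted p are named, plus Nfe2l1 and Nfe2l2.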

Additional observations from a re-analysis of the deposited data

Results flagged for a closer look

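In 172 groups of 6 libraries, 4 held a library standing apart from the other 5 by Dixon's criterion, where chance alone marks about 1 group in 20. Psma1 in combination replicate 5 was at 132.5 FPKM, with the nearest other library at 98.6. Psmb5 in vehicle replicate 3 was at 104.5 FPKM, the lowest of its group, with the nearest at 116.5. In the same library Psmb9 was at 32.15 FPKM, with the nearest at 17.0, and Kupffer cell, endothelial and lymphoid marker sums were the highest of the vehicle group. Psmb8 in combination replicate 2 was at 33.02 FPKM, with the nearest at 24.8. The endothelial and lymphoid marker sums of that library, 66.67 and 4.23 FPKM, were the highest of its group. So were its Psmb9 and Psmb10, at 32.25 and 42.89 FPKM. Its Kupffer cell sum, 101.31 FPKM, was below the 104.65 of combination replicate 3. DEHP replicate 1 had the highest Kupffer cell, endothelial and lymphoid marker sums of the DEHP group and the lowest Psmb9 of that group, 17.4 FPKM. Ethanol replicate 2 had the highest of the same sums in the ethanol group. It also had the highest Psmb8 and Psmb9 of that group, 35.92 and 23.54 FPKM. The part of these cells in the values was not tested.

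The effect of ethanol on Psmc6 differed with and without DEHP, by an interaction of 0.55 on the log2 scale (adjusted p = 0.0484). Across alternatives that change 1 choice, its call was lost under 3 settings and on leaving out any one of 16 libraries.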

How the results depend on the processing

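For the DEHP and combination groups, leaving out 1 library gave 23 to 29 rises with DEHP (median 0.23 to 0.30), 31 to 34 with the combination (0.44 to 0.49) and 29 to 37 for the combination against ethanol (0.29 to 0.36). Rises among all tested genes were then 1239 to 1557, 1786 to 2104 and 1387 to 1673. With the length trend removed, alone or with the block, 1 gene fell with DEHP and 1 with the combination, whose median became 0.32. Of all genes 993 and 966 fell with DEHP, and 1294 and 1277 with the combination, in that order. With both, 1 fell against ethanol, beside 1287 of all genes. Without DEHP replicate 2, or without combination replicate 2 against ethanol, 1 gene (Psmb8) fell, 0 otherwise. In these fits 982 and 1226 of all genes fell. On TPM the median against ethanol was 0.45, and that of the interaction 0.12.

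Ethanol against vehicle depended on the setting. Rises numbered 4 without TMM factors, 6 without a filter, 4 with limma on log2(FPKM + 1) and also with + 0.1, 1 on TPM and 4 with the trend removed (median 0.019). Of all genes 930, 1323 (of 17524 tested), 1090, 1096, 481 and 1377 rose, in that order. Falls numbered 1 with upper quartile factors, without a filter and with filterByExpr, and 8 on TPM (median -0.044). Among all genes 1440, 1539, 1553 (of 11742 tested) and 2764 fell, in that order. Leaving out 1 library gave 5 to 14 rises, 1 to 3 falls and medians of 0.10 to 0.14. All genes then gave 1188 to 1644 rises and 1210 to 1671 falls. Without vehicle replicate 1 and combination replicate 6, chosen after seeing the data, 7 rose and 1 fell, and no interaction (0) passed. There 1235 of all genes rose and 1440 fell, and interactions passed for 264 upward and 224 downward.

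Between combination and DEHP, leaving out 1 library gave 0 calls each time and medians of 0.12 to 0.19, and DESeq2 gave 1. All genes gave 0 to 8 rises and 0 to 12 falls on leaving out 1 library, and 19 and 25 with DESeq2. Interactions that passed numbered 2 with DESeq2, without TMM factors, on TPM and with the trend removed, and 0 with upper quartile factors, without a filter and with filterByExpr. Of all genes 479, 447, 439 and 364 passed upward in the former, and 323, 406 and 338 in the latter. Leaving out 1 library gave 0 to 3, with medians of -0.01 to 0.05, where 248 to 440 of all genes passed upward.

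Of 36 same-numbered pairs 7 correlated above 0.1 (range -0.19 to 0.21), and 6 correlated best with their own number. These correlations gave no sign that replicate numbers pair the libraries, but they can miss a weak pairing. With the number as a block 8 genes rose and 2 fell with ethanol, 28 rose with DEHP, 32 with the combination and 35 against ethanol. All tested genes gave 1431 rises and 1499 falls with ethanol, then 1445, 2012 and 1557 rises in the same order. With block and length trend together, 3 rose with ethanol (median 0.019) and 2 interactions passed. There 1321 of all genes rose with ethanol, and interactions passed for 322 upward and 341 downward. With lengths of RefSeq gene spans the slopes were 0.016 to 0.048 in vehicle and -0.041 to 0.018 in ethanol libraries. They were -0.022 to 0.0281 in DEHP and -0.0295 to 0.013 in combination libraries. On this length the DEHP and ethanol ranges overlapped with vehicle, and the combination range lay below it.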
